A study of Mus musculus with 6 samples.

Results

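The BCL2 family genes described here are 10 members named by symbol, and all 10 were found among the 25239 rows of the deposited gene table. They comprise 4 anti-apoptotic genes (Bcl2, Bcl2l1, Bcl2l2 and Mcl1), 2 effector genes (Bax and Bak1) and 4 BH3-only genes (Bid, Bbc3, Pmaip1 and Bcl2l11). All 10 passed the filter on low counts that left 14065 genes for testing. The samples were mouse primary pulmonary fibroblasts, which are connective tissue cells grown out of lung. There were 3 libraries labelled Nutlin 3a-induced senescent (nSene) and 3 labelled quiescent (Quie). For induction the labels give 16 hours of the Cdk1 inhibitor RO3306, 48 hours of Nutlin 3a, which blocks Mdm2 from binding p53, and 100 nM of the Plk1 inhibitor BI-2536 to remove dividing cells, with 12 days in total. The quiescent samples carry the same treatment text, and the sources used here do not give how they were brought to quiescence. The labels give 10% serum and 5% oxygen for both groups. Strain, age and sex of the mice are not given, nor is it said whether replicates were grown from different animals or cultures. The p-values therefore rest on the spread between libraries alone, which may be technical.

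In the mitochondrial route to apoptosis, Bax and Bak1 form pores in the outer mitochondrial membrane that release cytochrome c. The anti-apoptotic proteins hold Bax, Bak1 and the BH3-only proteins in inactive complexes. BH3-only proteins are the stress sensors: they neutralise the anti-apoptotic proteins or activate the effectors, and Bbc3 (Puma) and Pmaip1 (Noxa) are textbook p53 target genes. Senescent cells are known for resisting apoptosis, and compounds that block BCL2, BCL-XL and BCL-W proteins are used to kill them in culture. Messenger RNA was counted here, not protein, splice forms or binding between proteins.

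RefSeq start-site windows on GRCm38.p6, taken as the 250 bases before a start, were found for 9 of the 10 members, Pmaip1 excepted (14 windows). Of these, 5 are shown because they hold the p53 or forkhead motif that is of interest for genes of this pathway (Bax, Bbc3 and Bcl2l11) or belong to the pair of survival genes that moved in opposite directions (Bcl2 and Bcl2l1). Capitals mark a match to the p53 half-site (in Bax), to the forkhead motif GTAAACA in either orientation (in Bbc3 and Bcl2l11) or to CACGTG (in Bax).
Bcl2, chr1:106714291-106714540, minus strand: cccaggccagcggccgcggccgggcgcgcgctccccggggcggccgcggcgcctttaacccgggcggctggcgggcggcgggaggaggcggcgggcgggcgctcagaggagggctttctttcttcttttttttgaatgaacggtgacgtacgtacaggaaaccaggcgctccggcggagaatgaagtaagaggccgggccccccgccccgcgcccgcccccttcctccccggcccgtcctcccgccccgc
Bcl2l1, chr2:152831729-152831978, minus strand: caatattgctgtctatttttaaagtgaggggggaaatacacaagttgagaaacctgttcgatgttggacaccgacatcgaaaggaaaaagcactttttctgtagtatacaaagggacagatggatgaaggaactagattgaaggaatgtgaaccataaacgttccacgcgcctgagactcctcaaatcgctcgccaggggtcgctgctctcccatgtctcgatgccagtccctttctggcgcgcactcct
Bax, chr7:45466899-45467148, minus strand: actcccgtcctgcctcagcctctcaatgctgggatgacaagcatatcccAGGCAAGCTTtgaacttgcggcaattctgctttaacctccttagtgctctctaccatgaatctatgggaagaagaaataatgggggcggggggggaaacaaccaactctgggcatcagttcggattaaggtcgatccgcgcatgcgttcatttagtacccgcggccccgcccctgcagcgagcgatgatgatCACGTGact
Bbc3, chr7:16310011-16310260, plus strand: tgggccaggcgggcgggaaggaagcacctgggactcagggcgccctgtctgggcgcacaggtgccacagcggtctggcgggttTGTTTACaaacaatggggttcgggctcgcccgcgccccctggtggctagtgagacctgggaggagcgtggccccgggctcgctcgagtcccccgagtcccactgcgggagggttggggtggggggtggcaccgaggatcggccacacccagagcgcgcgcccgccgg
Bcl2l11, chr2:128125788-128126037, plus strand: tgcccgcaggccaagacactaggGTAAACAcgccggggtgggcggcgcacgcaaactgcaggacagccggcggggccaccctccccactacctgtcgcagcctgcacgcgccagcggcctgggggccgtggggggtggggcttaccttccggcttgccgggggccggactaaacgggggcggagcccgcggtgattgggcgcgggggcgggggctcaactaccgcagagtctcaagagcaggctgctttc

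A p53 half-site stood at -201 from the Bax start, and 7.13% of all 32851 windows of this length held one on either strand. No other member window held one, those of Bbc3 included, and Pmaip1, which had no window, was not searched for any motif. GTAAACA, searched on both strands, stood at -167 in the Bbc3 window and at -227 in the Bcl2l11 window, against 3.17% of all windows. CACGTG, which reads the same on both strands, stood at -9 in Bax and in a further Bbc3 window at -64, against 6.02% of all windows. TGACG, searched on both strands, stood, not capitalised, at -107 in Bcl2 and, in a Bbc3 window not shown, at -55, against 17.8% of all windows. TGANTCA and TGATGNAAN, searched on both strands, had no match in any member's window, against 6.75% and 3.44% of all windows. No marked match overlapped another in the windows shown. A match of letters is a description only.

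Levels are CPM, counts divided by the TMM-adjusted library total in megareads. Totals ran from 93736593 to 109706025 counts, of which 18219831 to 21386546 lay outside the rows Rn45s, Lars2 and Mir6236, which makes CPM values low. All 10 fibroblast markers passed the filter, with 3 higher and 6 lower in nSene, where 36.7% and 37.8% of all tested genes were. Their summed levels were 2214 to 2683 CPM in nSene and 3897 to 3984 CPM in Quie libraries. Of 8 lung epithelial markers, Krt18 alone passed the filter and was higher (40 to 65 counts in nSene, 18 to 25 in Quie libraries). The epithelial sum was 0.548 to 0.807 CPM in nSene and 0.367 to 0.472 CPM in Quie libraries, with Nkx2-1 at 0 in every library. The 8 endothelial markers summed to 3.43 to 5.02 CPM in nSene and 5.16 to 5.68 CPM in Quie libraries, with Pecam1 at 3 to 6 counts. Cdh5 was higher (82, 93 and 168 counts in nSene, 25, 25 and 27 in Quie libraries), Tek was lower (42 to 64 in nSene, 353 to 419 in Quie libraries), and Kdr did not pass at 132 to 243 counts. The 8 smooth muscle and pericyte markers summed to 213 to 322 CPM in nSene and 98.0 to 118 CPM in Quie libraries. Of these 8, 6 were higher and 1 lower, beside 36.7% higher and 37.8% lower over all tested genes. The counts do not show which cells the reads of a marker came from. The part of the epithelial, endothelial, smooth muscle and pericyte markers in the members' values was not tested. A smaller number of cells of a type and less RNA per cell cannot be told apart in these bulk samples.

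In edgeR's quasi-likelihood test with Benjamini-Hochberg adjustment over all tested genes, 6 of the 10 members were higher and 2 lower in senescent cells at an adjusted p under 0.05. Over all tested genes 36.7% were called higher and 37.8% lower, 74.5% in all, so the share of members called is near the background. Under library totals without TMM, 4 members were higher and 3 lower, beside 2952 higher and 7435 lower of all tested genes, and 4 to 7 members were higher over all alternatives. The median log2 fold change was 0.28 for the members and -0.02 for all tested genes. The median size of change, regardless of sign, was 0.59 for the members and 0.50 for all tested genes. The calls cut across the roles: 3 anti-apoptotic genes rose and 1 fell, 1 effector rose and 1 did not pass, and 2 BH3-only genes rose, 1 fell and 1 did not pass. The groups did not overlap for 8 members, 6 with senescent libraries above and 2 with them below, where over all tested genes the shares were 38.4% above and 39.9% below, 78.3% in all.

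**Figure D1:**
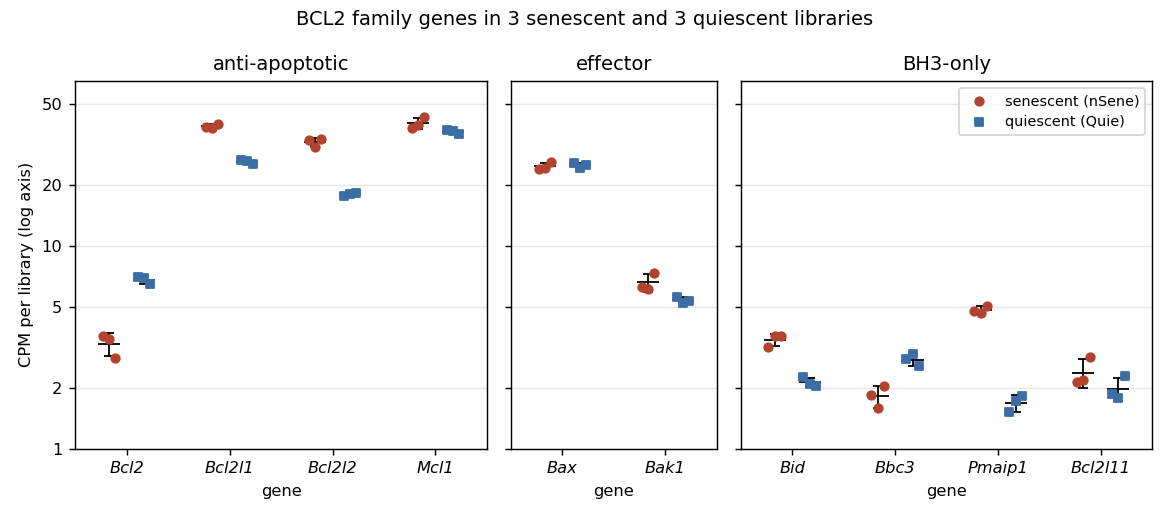
CPM (log axis) of each member in the 3 senescent (circles, left) and 3 quiescent (squares, right) libraries, by role; black bars are the mean and SD of 3 libraries. The senescent circles lie fully above the quiescent squares for Pmaip1, Bid, Bcl2l1 and Bcl2l2 and fully below them for Bcl2 and Bbc3, while those of Bax and Bcl2l11 overlap.

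Among the anti-apoptotic genes, Bcl2, the founding member of the family (chromosome 1, 106538178 to 106714274, minus strand), fell. It had 3.60, 3.49 and 2.79 CPM in nSene libraries, against 7.07, 6.92 and 6.48 CPM in Quie libraries. Every senescent library was below every quiescent one, and senescent replicate 3 was the lowest. This gave a log2 fold change of -1.05 (standard error 0.09, adjusted p = 9.3e-07 in edgeR), and -1.12 to -0.94 with single libraries left out. The antisense gene D630008O14Rik shares 558 of the 9157 exonic bases of Bcl2.

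Bcl2l1, which encodes BCL-XL (chromosome 2, 152780668 to 152831728, minus strand), rose. It had 38.6, 38.3 and 40.1 CPM in nSene libraries, against 26.4, 26.2 and 25.2 CPM in Quie libraries. The libraries of each group lay close together, with a coefficient of variation of 2.41% in both nSene and Quie. Bcl2l1 had a log2 fold change of 0.59 (standard error 0.05, adjusted p = 3.3e-07 in edgeR).

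Bcl2l2, which encodes BCL-W (chromosome 14, 54883377 to 54888234, plus strand), rose the most of the 4. It had 33.2, 30.8 and 33.6 CPM in nSene libraries, against 17.7, 18.0 and 18.2 CPM in Quie libraries. The groups did not overlap, and the lowest senescent library was well above the highest quiescent one. Its log2 fold change was 0.86 with a standard error of 0.05 (adjusted p = 2.7e-08 in edgeR). A predicted protein-coding gene on the same strand, Gm20521, shares 594 of the 4462 exonic bases, and the counting does not show how shared reads were assigned.

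Mcl1, a survival protein with a short half-life (chromosome 3, 95658788 to 95663176, plus strand), stood close to the threshold. It had 38.0, 39.3 and 43.2 CPM in nSene libraries, against 37.1, 36.9 and 35.6 CPM in Quie libraries. The groups did not overlap, but senescent replicate 1 lay less than 1 CPM above the highest quiescent library. Its log2 fold change was 0.14 with a standard error of 0.05 (adjusted p = 0.0399 in edgeR), and it passed neither under upper quartile scaling (0.04, adjusted p = 0.494) nor without senescent replicate 3 (0.09, adjusted p = 0.0676). It was also lost without any one of the quiescent libraries (adjusted p 0.0818 to 0.131) and turned to -0.16 under library totals without TMM (adjusted p = 0.0963).

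Levels of different genes were set side by side after division by the union of their exons, and the order of Mcl1 and Bcl2l1 in nSene depends on that length. By this measure Mcl1 was the highest anti-apoptotic gene in both groups. It reached 11.8 ± 0.788 CPM per kb in nSene and 10.7 ± 0.242 in Quie libraries (SD, n = 3 each). Bcl2l1 followed with 8.50 ± 0.205 in nSene and 5.66 ± 0.136 in Quie libraries, then Bcl2l2 with 7.29 ± 0.332 in nSene and 4.03 ± 0.0607 in Quie libraries. Bcl2 was far below them at 0.359 ± 0.0478 in nSene and 0.745 ± 0.0331 in Quie libraries. The library ranges of these 4 genes did not touch within either group. With the longest transcript as length, an alternative chosen after seeing the data, Bcl2l1 (15.2 ± 0.365) was above Mcl1 (11.8 ± 0.788) in nSene libraries and below it in Quie libraries (10.1 ± 0.243 and 10.7 ± 0.242).

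The make-up of the anti-apoptotic transcripts was therefore described as shares of their summed CPM per kb, which do not depend on how libraries are scaled but do depend on the length used. Bcl2 made up 1.29% ± 0.218 of the sum in nSene and 3.53% ± 0.0984 in Quie libraries (SD, n = 3 each). Mcl1 made up 42.1% ± 1.34 in nSene and 50.6% ± 0.291 in Quie libraries. Bcl2l1 held 30.5% ± 0.488 in nSene and 26.8% ± 0.204 in Quie libraries, and Bcl2l2 held 26.1% ± 0.917 in nSene and 19.1% ± 0.588 in Quie libraries. With the longest transcript as length, Mcl1 held 32.7% in nSene and 40.4% in Quie libraries, and Bcl2l1 42.3% in nSene and 38.2% in Quie libraries. The ratio of Bcl2l1 to Bcl2 per length was 21.4, 21.95 and 28.7 in nSene libraries, against 7.47, 7.55 and 7.77 in Quie libraries.

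**Figure D2:**
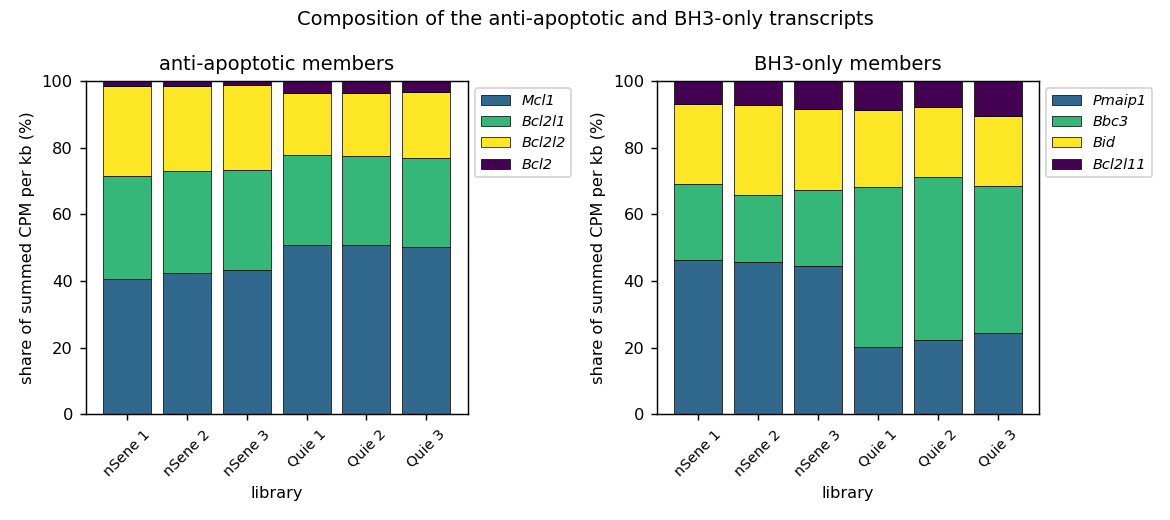
Share (%) of each gene in the summed CPM per kb of exon union of the 4 anti-apoptotic members (left) and the 4 BH3-only members (right), 1 bar per library, senescent libraries first. Mcl1 and Bcl2 take smaller shares in the senescent bars (42.1% and 1.29% on average), and Pmaip1 and Bbc3 exchange places as the leading BH3-only transcript.

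Of the effectors, Bax, which moves to mitochondria when activated (chromosome 7, 45461697 to 45466898, minus strand), did not pass the test. It had 23.9, 24.1 and 25.9 CPM in nSene libraries, against 25.8, 24.2 and 25.1 CPM in Quie libraries. The groups overlapped. Bax had a log2 fold change of -0.02 with a 95% interval of -0.13 to 0.09 (adjusted p = 0.722 in edgeR). Per length Bax was the most abundant member, at 15.6 ± 0.704 CPM per kb in nSene and 15.9 ± 0.483 in Quie libraries, and it lay at the 96.9th percentile of tested genes by this level. Under library totals without TMM its log2 fold change was -0.32 and passed (adjusted p = 0.00178), at a median of all tested genes of -0.32. A predicted gene on the same strand, Gm45808, shares 192 of its 1576 exonic bases.

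Bak1, which sits in the outer membrane of mitochondria (chromosome 17, 27019810 to 27029009, minus strand), was modestly higher, except under library totals without TMM, where its log2 fold change was -0.0036 (adjusted p = 0.977 in edgeR). It had 6.29, 6.14 and 7.40 CPM in nSene libraries, against 5.62, 5.23 and 5.36 CPM in Quie libraries. Senescent replicate 3 was the highest, and the groups did not overlap. Bak1 had a log2 fold change of 0.29 (standard error 0.08, adjusted p = 0.00602 in edgeR), and 0.21 without senescent replicate 3. Ggnbp1, on the opposite strand, overlaps Bak1 exons and had 17 to 32 counts in nSene and 43 to 53 in Quie libraries, against 549 to 761 Bak1 counts in nSene and 568 to 620 in Quie libraries. The ratio of Bax to Bak1 per length was 5.72 ± 0.332 in nSene and 7.07 ± 0.0712 in Quie libraries (SD, n = 3 each).

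The BH3-only genes did not move together. Pmaip1, which encodes Noxa, a protein that binds chiefly Mcl1 (chromosome 18, 66458533 to 66465565, plus strand), rose the most of the 10 members. It had 4.76, 4.68 and 5.06 CPM in nSene libraries, against 1.51, 1.71 and 1.83 CPM in Quie libraries. The lowest senescent library was well above the highest quiescent one. The fold change was 2.87 (log2 1.52, standard error 0.09, adjusted p = 2.7e-08 in edgeR), larger in size than that of 86.3% of tested genes.

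Bbc3, which encodes Puma, a protein that binds all the anti-apoptotic members (chromosome 7, 16308393 to 16318205, plus strand), fell. It had 1.83, 1.59 and 2.03 CPM in nSene libraries, against 2.77, 2.92 and 2.55 CPM in Quie libraries. Every senescent library was below every quiescent one. This was a log2 fold change of -0.59 (standard error 0.11, adjusted p = 3.2e-04 in edgeR), and it stayed between -0.67 and -0.51 when single libraries were left out. The counts behind it were small, 142 to 209 in nSene and 270 to 346 in Quie libraries.

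Pmaip1 made up 45.5% ± 0.963 of the summed BH3-only level per length in nSene and 22.4% ± 2.10 in Quie libraries (SD, n = 3 each). Bbc3 made up 21.9% ± 1.70 in nSene and 46.9% ± 2.59 in Quie libraries. The ratio of Pmaip1 to Bbc3 was 2.02, 2.29 and 1.94 in nSene libraries, against 0.426, 0.456 and 0.559 in Quie libraries. With the longest transcript as length, Pmaip1 made up 37.9% in nSene and 18.2% in Quie libraries, and Bbc3 21.4% in nSene and 44.4% in Quie libraries. Pmaip1 thus exceeded Bbc3 in each senescent library and was below it in each quiescent one. The ratio of Mcl1 to Pmaip1 was 6.64 ± 0.226 in nSene and 17.5 ± 2.03 in Quie libraries.

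Bid, which caspase 8 cleaves to carry a death receptor signal to mitochondria (chromosome 6, 120891930 to 120916853, minus strand), rose. It had 3.19, 3.59 and 3.60 CPM in nSene libraries, against 2.25, 2.09 and 2.05 CPM in Quie libraries. The groups did not overlap. For Bid the log2 fold change was 0.70 with a standard error of 0.09 (adjusted p = 1.7e-05 in edgeR). It shares 628 of its 3550 exonic bases with Bcl2l13 on the opposite strand, and the labels do not say whether strand was used in counting, so the count of Bid is uncertain to that extent. Bcl2l13 had a log2 fold change of 0.15.

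Bcl2l11, which encodes Bim, an activator of Bax and Bak1 and a known forkhead target (chromosome 2, 128126038 to 128162547, plus strand), did not pass the test. It had 2.12, 2.18 and 2.83 CPM in nSene libraries, against 1.87, 1.78 and 2.27 CPM in Quie libraries. The groups overlapped, and replicate 3 was the highest of each. The difference was 0.27 on the log2 scale with a 95% interval of -0.02 to 0.57 (adjusted p = 0.0835 in edgeR). It passed without quiescent replicate 3 (0.38, adjusted p = 0.0330), while the log2 fold change was 0.13 without senescent replicate 3 and -0.02 under library totals without TMM. Its coefficient of variation was the largest of the members, 16.5% in nSene and 13.3% in Quie libraries, where counting error alone gives 6.56% and 6.79%.

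Ordered by level per kb of exon union, the first 5 members were Bax, Mcl1, Bcl2l1, Bcl2l2 and Bak1 in both groups. After them came Pmaip1, Bid, Bbc3, Bcl2 and Bcl2l11 in nSene libraries, where Bid and Bbc3 overlapped, as did Bcl2 and Bcl2l11. In Quie libraries the order was Bbc3, Bcl2, Pmaip1, Bid and Bcl2l11, where Pmaip1 and Bid overlapped. All other neighbours had library ranges that did not touch. With the longest transcript as length, Bcl2l1 stood above Mcl1 in nSene libraries, where Bcl2l11 and Bcl2 overlapped in turned order, and Bid stood above Pmaip1 in Quie libraries, overlapping Bcl2.

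As a sum, the anti-apoptotic members reached 27.9 ± 1.13 CPM per kb in nSene and 21.1 ± 0.359 in Quie libraries (SD, n = 3 each). The effectors reached 18.4 ± 0.985 in nSene and 18.1 ± 0.563 in Quie libraries, and the BH3-only genes 3.90 ± 0.243 in nSene and 2.75 ± 0.0492 in Quie libraries. The ratio of the anti-apoptotic sum to that of the effector and BH3-only genes was 1.27, 1.26 and 1.23 in nSene libraries, against 0.999, 1.05 and 0.993 in Quie libraries. On the log2 scale the difference between the groups was 0.31. The direction depends on the weighting. With the mean of the log2 levels of each side, in which each gene counts the same as others of its side, the difference was -0.23. Bcl2l1 and Bcl2l2 make up most of the difference in the anti-apoptotic sum. In the mean the scarce Bcl2 weighs as much as any other anti-apoptotic gene, and Pmaip1 as much as any effector or BH3-only gene. No test was made on these sums, since the members were chosen.

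**Figure D3:**
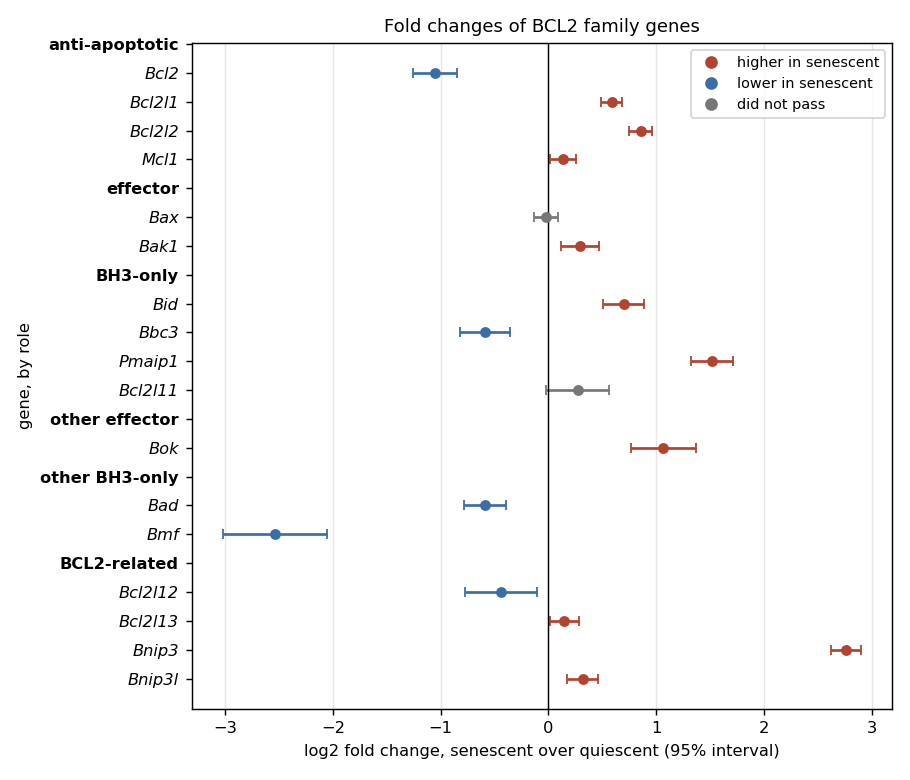
Log2 fold change, senescent over quiescent, with its 95% interval for the members by role and for other tested genes of the family; red points passed as higher and blue points as lower (adjusted p under 0.05), and grey points did not pass. Bcl2a1a, Bcl2a1d and Bcl2l15 are left out because their quiescent libraries held 0 to 8 counts. Points fall on both sides of 0 within the anti-apoptotic, BH3-only and BCL2-related groups.

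Other genes of the family were given from lists by role. Of the remaining effector and BH3-only genes, Bok, an effector-like gene, rose and Bad and Bmf fell. Bok had 3.20, 3.07 and 2.32 CPM in nSene libraries, against 1.40, 1.19 and 1.51 CPM in Quie libraries, which gave a log2 fold change of 1.07 (SE 0.14, edgeR adjusted p = 2.8e-05). Bad, which binds BCL2 and BCL-XL when dephosphorylated, had a log2 fold change of -0.59 (standard error 0.09). Bmf, a BH3-only gene tied to cell detachment, had 0.150, 0.190 and 0.126 CPM in nSene libraries, against 0.875, 0.767 and 1.07 CPM in Quie libraries. Its log2 fold change of -2.54 (standard error 0.22, adjusted p = 7.8e-07 in edgeR) rests on 13 to 17 counts in nSene and 91 to 113 in Quie libraries. Bik and Hrk had at most 4 counts in any library and were not tested.

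The Bcl2a1 genes, near-identical copies that encode the A1 survival protein of blood cells, were seen almost only in senescent libraries. Bcl2a1d had 29, 21 and 40 counts in nSene libraries, against 0 in each Quie library. Its pooled level in nSene was 34.0-fold that of a floor of 3 counts over the quiescent group. The floor bounds the quiescent side only, as the senescent counts are taken without their own counting error. Bcl2a1b had 8, 4 and 8 counts in nSene libraries, against 0 in each Quie library, a pooled nSene level 7.55-fold that of the same floor. Bcl2a1a had 17, 23 and 38 counts in nSene libraries, against 0, 0 and 2 in Quie libraries. Reads can be shared between these copies, so the count of each is uncertain. Beside them, 5 of 10 macrophage markers passed the filter, and all 5 (Cd14, Lyz2, Cd68, Csf1r and Mrc1) were higher in senescent cells. Of all tested genes, 36.7% were higher. Among the 5 markers, Mrc1 was close to the filter in quiescent cells, with 18 to 28 counts in nSene and 8 to 10 in Quie libraries. Mrc1 passed the filter on low counts only through its senescent libraries, so it could hardly have been called lower. The summed macrophage marker level was 10.9 to 14.4 CPM in nSene and 4.04 to 4.29 CPM in Quie libraries. Cd14 alone held 5.87 to 7.75 CPM of it in nSene and 2.18 to 2.40 CPM in Quie libraries. Itgam, not tested, had 22, 10 and 37 counts in nSene libraries, against 7, 5 and 2 in Quie libraries. Ptprc, the pan-leukocyte gene, had 9, 2 and 7 counts in nSene libraries, against 1, 0 and 2 in Quie libraries, and Adgre1, which encodes F4/80, had 12, 8 and 9 counts in nSene libraries, against 0, 0 and 3 in Quie libraries. Fcgr1 was at 0 in 2 libraries of each group, and Cx3cr1 ran the other way, with 3, 2 and 3 counts in nSene libraries, against 9, 6 and 5 in Quie libraries. The part of these markers in the Bcl2a1 counts was not tested. Bcl2l10, also anti-apoptotic, had at most 2 counts in any library.

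Of 6 BCL2-related genes, 5 were tested, of which 4 were higher and 1 lower, beside 36.7% higher and 37.8% lower over all tested genes. The counts were 2 higher and 1 lower under library totals without TMM, and 3 higher and 0 lower in DESeq2. Bcl2l14 had 2 to 8 counts in nSene and 4 to 6 in Quie libraries and was not tested. Bnip3, a mitophagy receptor gene known as a hypoxia target, rose to 22.7 ± 1.26 CPM in nSene, against 3.35 ± 0.124 CPM in Quie libraries (SD, n = 3 each, log2 fold change 2.76, standard error 0.06). Its relative Bnip3l had a log2 fold change of 0.32, which was 0.02 and did not pass under library totals without TMM. Bcl2l15, counted among the higher genes, had 352, 212 and 480 counts in nSene libraries, against 2, 8 and 4 in Quie libraries. It passed the filter on low counts only through its senescent libraries, so it could hardly have been called lower. Bcl2l12 was lower (-0.44), a call that was lost without senescent replicate 2 (adjusted p = 0.0733 in edgeR), without quiescent replicate 3 (adjusted p = 0.0902) and in DESeq2 (adjusted p = 0.0506). Bcl2l13 was called higher at 0.15 (adjusted p = 0.0429 in edgeR), but not without any one of the 3 quiescent libraries nor without senescent replicate 2 or 3 (adjusted p 0.0547 to 0.153), and it was -0.15 under library totals without TMM.

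Downstream of the pore, 4 of 13 apoptosome, caspase and IAP genes were higher and 4 lower, beside 36.7% higher and 37.8% lower over all tested genes. Cycs, the gene of cytochrome c, had 3.77, 3.99 and 3.98 CPM in nSene libraries, against 1.78, 1.61 and 1.45 CPM in Quie libraries (log2 fold change 1.28, standard error 0.09). Birc3, which encodes the ubiquitin ligase cIAP2, rose by 1.33, while its relative Birc2 (cIAP1) fell by 1.01 on the log2 scale. Birc5 (survivin), which also serves in mitosis, fell by 1.92 on the log2 scale. The gene of the apoptosome scaffold, Apaf1, did not pass at 12.4 ± 1.67 CPM in nSene and 12.4 ± 0.0159 CPM in Quie libraries. Under library totals without TMM, 9 genes of this list were lower, and 8 under upper quartile scaling.

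In the death receptor pathway, 2 of 8 tested genes were higher and 5 lower, beside 74.5% called among all tested genes. Cflar, which encodes the caspase 8 inhibitor FLIP, rose by 1.43 on the log2 scale, with 106, 106 and 100.2 CPM in nSene libraries, against 39.2, 40.0 and 36.5 CPM in Quie libraries. Tnfrsf10b, the gene of the TRAIL receptor, rose by 0.63. Fas fell by 1.15 and Tnfrsf1a, the gene of TNF receptor 1, fell by 0.77 on the log2 scale. The ligand gene Fasl had 1 count in a single quiescent library and 0 in the others, and Tnfsf10 (TRAIL) had 0, 0 and 1 counts in nSene libraries, against 5, 6 and 4 in Quie libraries.

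Of 4 partners of the family in the outer membrane, 3 were higher and 1 lower, where 74.5% of all tested genes were called (1 higher and 1 lower under library totals without TMM). Vdac2, a channel protein that binds Bak1, had 50.7, 49.4 and 49.6 CPM in nSene libraries, against 28.8, 27.7 and 27.9 CPM in Quie libraries (log2 fold change 0.83, standard error 0.04). Vdac3 was higher by 0.26 and Vdac1 by 0.22, but both were slightly negative under library totals without TMM (-0.04 and -0.08). Mtch2, a receptor for cleaved Bid, fell by 0.25 on the log2 scale.

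Of 11 genes that regulate the members or their proteins, 5 were higher and 2 lower, beside 74.5% called among all tested genes. Under library totals without TMM, 3 were higher and 5 lower. Ddit3, which encodes the stress factor CHOP, rose by 1.05 and Mdm2 by 0.95 on the log2 scale. Foxo1, a forkhead factor gene, fell by 0.45 and E2f1 by 0.40 on the log2 scale. Trp53 had 20.9, 19.98 and 24.9 CPM in nSene libraries, against 14.2, 13.95 and 14.3 CPM in Quie libraries (log2 fold change 0.63). The gene of Fbxw7, a ligase adaptor for Mcl1, was higher by 0.37 (0.08 and not passed under library totals without TMM), while Huwe1 and Usp9x, an Mcl1 ligase and an Mcl1 deubiquitinase, did not pass (0.06 and 0.0048), both being negative under library totals and upper quartile scaling.

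**Figure D4:**
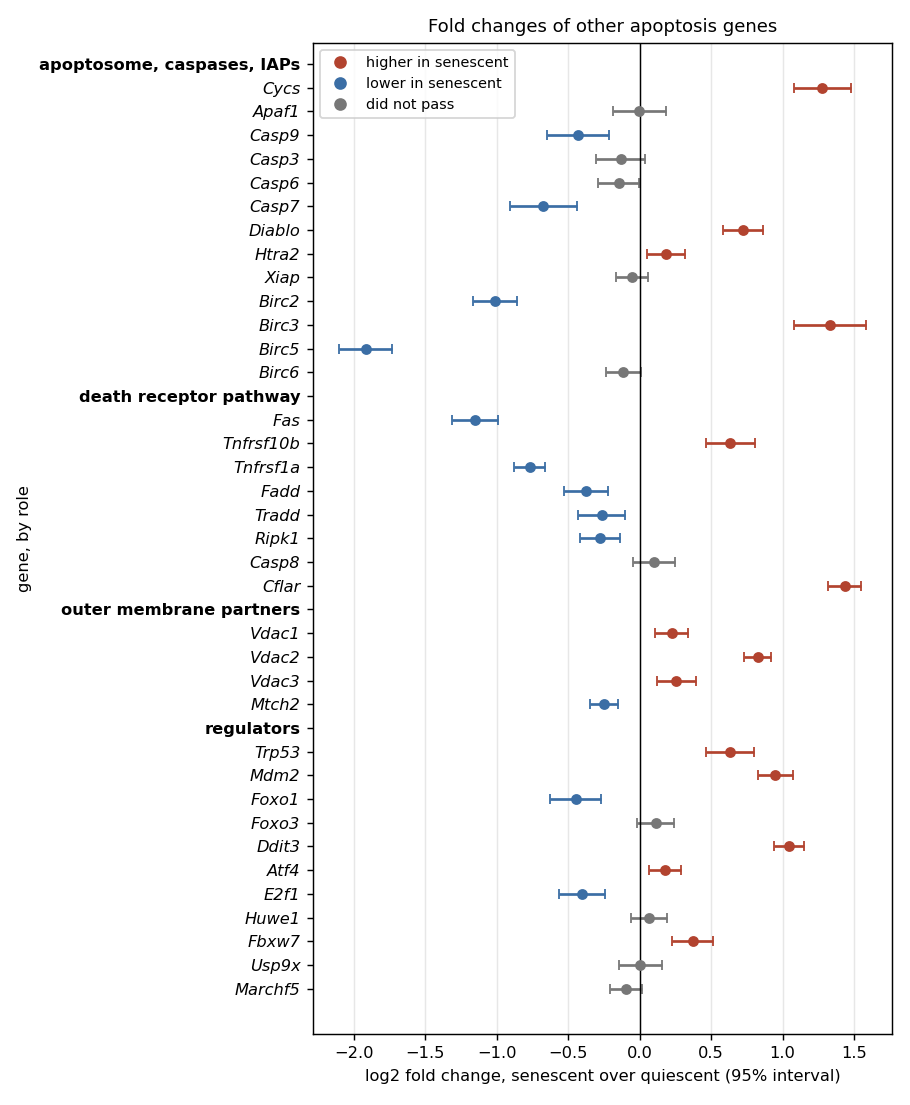
Log2 fold change, senescent over quiescent, with its 95% interval for tested genes of the caspase, death receptor, outer membrane and regulator lists; colours as for the family. Cflar (1.43) and Birc3 (1.33) lie farthest to the right and Birc5 (-1.92) and Fas (-1.15) farthest to the left.

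Genes with the most similar profiles over the 6 libraries were sought among 13224 tested genes, by the root mean square distance of centred log2 CPM. For Bcl2l1 they were Bzw1 (distance 0.012), Aars (0.018) and Rab7 (0.018). For Pmaip1 they were Angpt4 (0.042), Gk (0.049) and Taldo1 (0.051). For Bcl2 they were Disp1 (0.025), Zbtb7c (0.034) and Bex3 (0.035). With 3 libraries in each of the 2 groups, such likeness rests mainly on an equal difference between the groups.

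**Figure D5:**
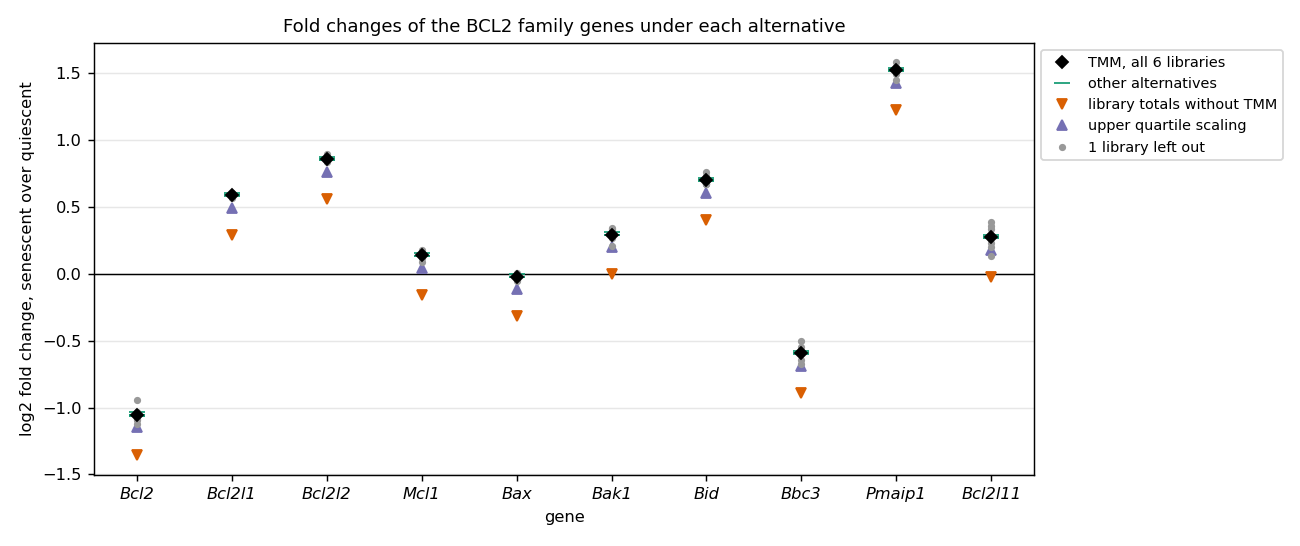
Log2 fold change of each member, senescent over quiescent, with TMM and all 6 libraries (diamonds) and under each alternative of scaling, filter, tool, block and left-out library. Library totals without TMM (downward triangles) move all members down, to -0.16 for Mcl1 and -0.0036 for Bak1, and leave Pmaip1 (1.22), Bcl2l2 (0.56), Bid (0.40) and Bcl2l1 (0.29) above 0.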

How the data were processed

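The values deposited by the authors are counts, whole numbers for each gene symbol, with no scaling. The submitters' processing notes name the build mm10, edgeR 3.32.1 and limma 3.46.0 but give no role for them. Aligner, counter, strand use and handling of multi-mapping reads were not given in the sources used here. Total RNA was depleted of ribosomal RNA and sequenced as paired 100 bp reads from a directional kit, per the labels' protocols. The replicates were checked against each other and differed by more than counting noise. This check included the ribosomal rows, whose share ran from 79.8% (Quie replicate 2) to 82.8% (nSene replicate 2), so the excess may be technical.

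All genes were fitted in R 4.3.3 (edgeR 4.0.16), after filterByExpr with the group as design (minimum count 10), using TMM, a robust quasi-likelihood F test and, across the genes tested, Benjamini-Hochberg adjusted p-values with a threshold of 0.05. The standard error is the size of the log2 fold change over the square root of F, and 95% intervals use the test's degrees of freedom. The fit was tested on simulated counts with known changes. CPM uses TMM-adjusted totals, ribosomal rows included, and was divided by the union of exon lengths in GENCODE M21 (GRCm38, the assembly mm10 names) for levels per kb. Ratios and shares carry no test. Alternatives were DESeq2 1.42.0, limma-voom (limma 3.58.1), no filter or a stricter one, other scalings, a block for replicate number, and leaving out single libraries. Levels and shares were also computed with the longest transcript, an alternative chosen after seeing the data. Named genes were all members, tested family genes, and up to 2 risen and 2 fallen genes per further list. Trp53, Apaf1, Vdac1, Fbxw7, Huwe1, Usp9x and untested genes were named after their values were seen. Members and lists were chosen with earlier results of these data known. Promoter windows came from RefSeq (GRCm38.p6), matched by symbol. The floor of 3 counts for genes at 0 covers counting error in the group at 0 only, as PCR reads lack molecular identifiers. The repeat table was not used.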

Additional observations from a re-analysis of the deposited data

How the results depend on the processing

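Bcl2, Bcl2l1, Bcl2l2, Bid, Bbc3 and Pmaip1 kept their direction and their call under all 14 alternatives, from DESeq2 to each left-out library. The median log2 fold change of all tested genes was -0.32 under library totals without TMM and -0.12 under upper quartile scaling. With library totals 2952 genes were higher and 7435 lower, 24 genes of the pathway lists were lower against 15 with TMM, and the log2 fold changes were -0.16 for Mcl1, -0.0036 for Bak1, -0.021 for Bcl2l11 and -0.32 for Bax. Relative to the median under library totals, Mcl1 stood at 0.16 and Bak1 at 0.32, and relative to the median with TMM they stood at 0.16 and 0.31. The same scaling turned Bcl2l13 to -0.15, Htra2 to -0.11, Casp8 to -0.20, Vdac1 to -0.077, Vdac3 to -0.044, Foxo3 to -0.18, Atf4 to -0.12, Huwe1 to -0.24 and Usp9x to -0.30, of which Casp8, Huwe1 and Usp9x passed as lower. Upper quartile scaling gave 0.042 for Mcl1, -0.031 for Huwe1 and -0.089 for Usp9x. Apaf1, near 0, was 0.014 in DESeq2, and Usp9x, near 0, was -0.00016 in limma-voom and -0.0017 with a minimum count of 30. With single libraries left out, Mcl1 ranged from 0.086 to 0.18, Bcl2l11 from 0.13 to 0.38, Bax from -0.054 to 0.0043, Apaf1 from -0.077 to 0.10 and Usp9x from -0.039 to 0.091. The cause of these moves was not tested. The log2 difference in the ratio of anti-apoptotic to effector and BH3-only sums, 0.31, was 0.37 with the longest transcript as length, 0.23 without division by length, 0.48 without Mcl1, Bax and Pmaip1, and -0.23 as a mean of log2 levels. With a minimum count of 30 neither Bcl2a1 gene was tested.

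The groups share replicate numbers, but same-numbered libraries deviated together little, if at all (correlations 0.051, -0.010 and 0.058 over all tested genes). Senescent replicate 1 correlated best with quiescent replicate 2 (0.056) and senescent replicate 2 with quiescent replicate 3 (0.017). Senescent replicate 3 correlated best with quiescent replicate 3 (0.058), the highest value of all pairs. With the replicate number as a block, 5124 genes were higher and 5281 lower, and Bcl2l11 passed (0.26, adjusted p = 0.0261 in edgeR). The Bcl2a1 genes, Bik, Hrk, Bcl2l10, Bcl2l14, Fasl and Tnfsf10 had at most 40 counts in any library, which limits what can be said of them.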
